A study of Mus musculus with 24 samples.

Results

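Fatty acid synthesis and desaturation were followed through 10 genes: Acly, Acss2, Acaca, Fasn, Me1, Elovl6, Scd1, Scd2, Fads1 and Fads2. They were chosen by symbol for their place in the pathway, with earlier results of these data known. All 10 were found among the 24043 gene symbols of the deposited table, and all 10 were among the 12389 genes that reached a mean of 1 FPKM (fragments scaled by transcript length and by the mapped total of the library) in at least 1 group and were tested. The cells were C2C12, an established mouse myoblast line that proliferates in serum-rich medium and fuses into myotubes when serum is withdrawn. Expression was measured by total RNA sequencing in 8 libraries, a replicate A and a replicate B in each of 4 groups. Another 8 chromatin libraries of the series, for the repressive histone mark H3K27me3, and their 8 inputs were not analysed here. The groups were growth medium (DMEM with 10% fetal bovine serum, cells kept below confluence) at 21% oxygen, growth medium at 2% oxygen, differentiation medium (DMEM with 2% horse serum and an insulin, transferrin and selenium supplement) at 21% oxygen, and differentiation medium at 2% oxygen. They are called normoxic growth medium, hypoxic growth medium, normoxic differentiation medium and hypoxic differentiation medium. The medium change therefore replaced the serum, its amount and the supplement together, and insulin came with the differentiation medium in both oxygen groups. The study asked how oxygen alters the response of these cells to differentiation medium. The series text calls A and B biological replicates but does not say whether they came from separate cultures, so p-values measure only the spread between these libraries.

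New fatty acids are built in the cytosol from acetyl-CoA, which ATP citrate lyase (Acly) makes from citrate and acetyl-CoA synthetase (Acss2) makes from acetate. Acetyl-CoA carboxylase (Acaca) turns acetyl-CoA into malonyl-CoA, fatty acid synthase (Fasn) joins these units into palmitate with NADPH that malic enzyme (Me1) helps to supply, and Elovl6 lengthens palmitate toward stearate. The stearoyl-CoA desaturases Scd1 and Scd2 place the first double bond in saturated chains and need molecular oxygen to do so, as do Fads1 and Fads2, which add double bonds to polyunsaturated fatty acids. Transcription of these genes is known to be raised by the sterol regulatory element-binding proteins, whose release from the endoplasmic reticulum is restrained by sterols and the Insig proteins and stimulated by insulin.

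The libraries held 14917 to 15672 genes above 0 FPKM, and their relative depth, estimated from the smallest steps between low values, ran from 0.633 to 1, both ends being libraries of hypoxic differentiation medium (replicates B and A). Replicates differed more than 2-fold at 613 genes in hypoxic differentiation medium and at 56 to 71 genes in the other groups. The summed FPKM of 8 cell cycle genes was 33.4 in replicate A and 195.6 in replicate B of hypoxic differentiation medium, against 39.0 and 39.4 in normoxic differentiation medium and 111 to 231 in growth medium. The summed FPKM of 10 myoblast and myotube markers did not rise with differentiation medium at 2% oxygen. The sum was 8351 and 8349 in normoxic and 61.5 and 83.0 in hypoxic differentiation medium. In growth medium it was 419 and 347 in normoxia and 98.7 and 106 in hypoxia. Abundant genes weigh most in such a sum. Taken singly, 4 of the 10 rose and 1 fell with differentiation medium at 2% oxygen (median log2 change 0.44, highest 1.58). Over all tested genes 23.3% rose there and 17.6% fell. In normoxia 9 of the 10 rose (median 6.62). All 10 were lower in hypoxic than in normoxic differentiation medium (median -7.23). The cells of hypoxic differentiation medium are therefore named by their medium and not as myotubes. The whole set of 6 hypoxia markers rose with 2% oxygen in growth medium (13.5% of all tested genes), and 5 of the 6 rose in differentiation medium (37.5% of all). In bulk RNA, fewer cells of a type and less RNA per cell cannot be told apart.

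The sequences before the start sites of the 3 genes that rose most in hypoxic differentiation medium and had an entry are printed to show what the text refers to when it speaks of motifs. RefSeq promoter windows (build GRCm38.p6) matched 7 of the 10 genes with 8 windows, and Scd1, Scd2 and Fads1 had none. The 250 bases before the annotated start are given 5′ to 3′ on the strand of the gene, which is the minus strand for all 3: Fads2 at chr19:10101504-10101753, Acly at chr11:100528001-100528250 and Fasn at chr11:120824548-120824797. Capitals mark the CCAAT box (CCAAT), the GC box (GGGCGG) and the core of the hypoxia response element (ACGTG), on either strand.
Fads2: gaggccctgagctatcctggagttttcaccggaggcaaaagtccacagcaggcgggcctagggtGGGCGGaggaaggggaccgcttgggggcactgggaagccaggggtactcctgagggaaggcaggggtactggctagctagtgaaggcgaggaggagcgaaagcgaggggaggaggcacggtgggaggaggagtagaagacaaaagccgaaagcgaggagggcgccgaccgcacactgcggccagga
Acly: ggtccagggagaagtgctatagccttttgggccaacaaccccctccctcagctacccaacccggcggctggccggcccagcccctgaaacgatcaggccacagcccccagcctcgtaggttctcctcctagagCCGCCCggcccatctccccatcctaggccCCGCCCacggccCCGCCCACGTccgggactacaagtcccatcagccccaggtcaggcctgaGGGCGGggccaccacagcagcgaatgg
Fasn: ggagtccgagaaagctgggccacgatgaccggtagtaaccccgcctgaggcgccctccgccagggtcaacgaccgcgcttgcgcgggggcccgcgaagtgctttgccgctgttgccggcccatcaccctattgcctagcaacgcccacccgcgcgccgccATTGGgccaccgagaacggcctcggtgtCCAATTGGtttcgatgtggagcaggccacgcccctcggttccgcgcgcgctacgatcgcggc
The Fasn window held the CCAAT box at 3 places, from -90 to -86, from -62 to -58 and from -59 to -55 relative to the start, the last pair overlapping on opposite strands. The Acly window held the GC box at 4 places, and its 1 match to ACGTG, from -71 to -67, overlapped a GC box by 1 base. Fads2 held 1 GC box, from -186 to -181. Over all 7 matched genes, CCAAT occurred in 3, GGGCGG in 4 and ACGTG in 2 (Acly and Me1). Among 32851 windows of the same length for all genes, the shares with a match were 33.8% for CCAAT, 32.7% for GGGCGG and 16.6% for ACGTG, and among the 11735 windows of tested genes they were 35.3%, 58% and 21.6%. Neither the sterol regulatory element TCACNCCAC, present in 1.05% of all windows, nor the E-box CACGTG, present in 6.02%, occurred in the 8 windows. That says only that these letters are absent from these stretches.

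Differentiation medium had opposite effects on most of the genes at the 2 oxygen levels. At 21% oxygen, 7 of the 10 genes fell and 1, Scd1, rose, with a median log2 change of -0.95. Over all tested genes the shares were 41.0% for falls and 25.5% for rises, and the median was -0.20. At 2% oxygen all 10 genes rose, with a median of 1.15 and a range from 0.58 (Fads1) to 3.58 (Fads2), where 23.3% of all tested genes were higher, 17.6% were lower and the median was 0.07. All log2 changes and calls are from limma on log2(FPKM + 1) with Benjamini-Hochberg adjustment over all tested genes and a threshold of 0.05 on the adjusted p. Their direction is differentiation medium minus growth medium or hypoxia minus normoxia. Fold values for a comparison of 2 groups are ratios of mean FPKM without the added 1. They therefore need not match the log2 change beside them, least of all where FPKM is low.

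Lowering oxygen likewise went one way in growth medium and the other way in differentiation medium. In growth medium, hypoxia lowered 8 of the 10 genes and raised 0, with a median of -1.0 against -0.14 over all genes, of which 28.0% were lower and 13.5% higher. Without replicate A of either normoxic or hypoxic growth medium 5 of the 10 passed, with Acly, Fasn and Fads1 lost, and 7 passed without replicate B of either. Over all genes the number lower went from 3463 to 2001 without hypoxic growth replicate A and to 2037 without hypoxic growth replicate B. In differentiation medium, hypoxia raised 7 of the 10 genes and lowered 1, Scd1, with a median of 1.19 against 0.15 over all genes, of which 37.5% were higher and 27.7% lower. The interaction, which is the response to differentiation medium at 2% oxygen minus that at 21% oxygen, was positive past the threshold for 9 of the 10 genes and negative for 0. Its median was 1.93 against 0.27 over all genes, of which 35.4% were positive and 18.7% negative. These comparisons share libraries, so they are not independent of each other.

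Median-of-ratios scaling moved the median of all genes to 0.02, 0.03, -0.04, -0.02 and -0.01 in the same order of comparisons, and that of the 10 genes to -0.69, 1.11, -0.88, 0.99 and 1.62. Counts of the 10 genes stayed at 1 higher and 7 lower, 10 higher, 8 lower, and 7 higher and 1 lower, and the interaction count went from 9 to 8. The split over all genes moved from 3161 higher and 5080 lower to 4298 and 3784 for differentiation medium at 21% oxygen, from 1672 and 3463 to 2098 and 2753 for hypoxia in growth medium, from 4644 and 3431 to 3763 and 4298 for hypoxia in differentiation medium, and from 4390 and 2317 to 2979 and 3265 for the interaction. With upper-quartile scaling the split for hypoxia in growth medium was 2375 and 2462, and that for the interaction 3390 and 2910.

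**Figure D1:**
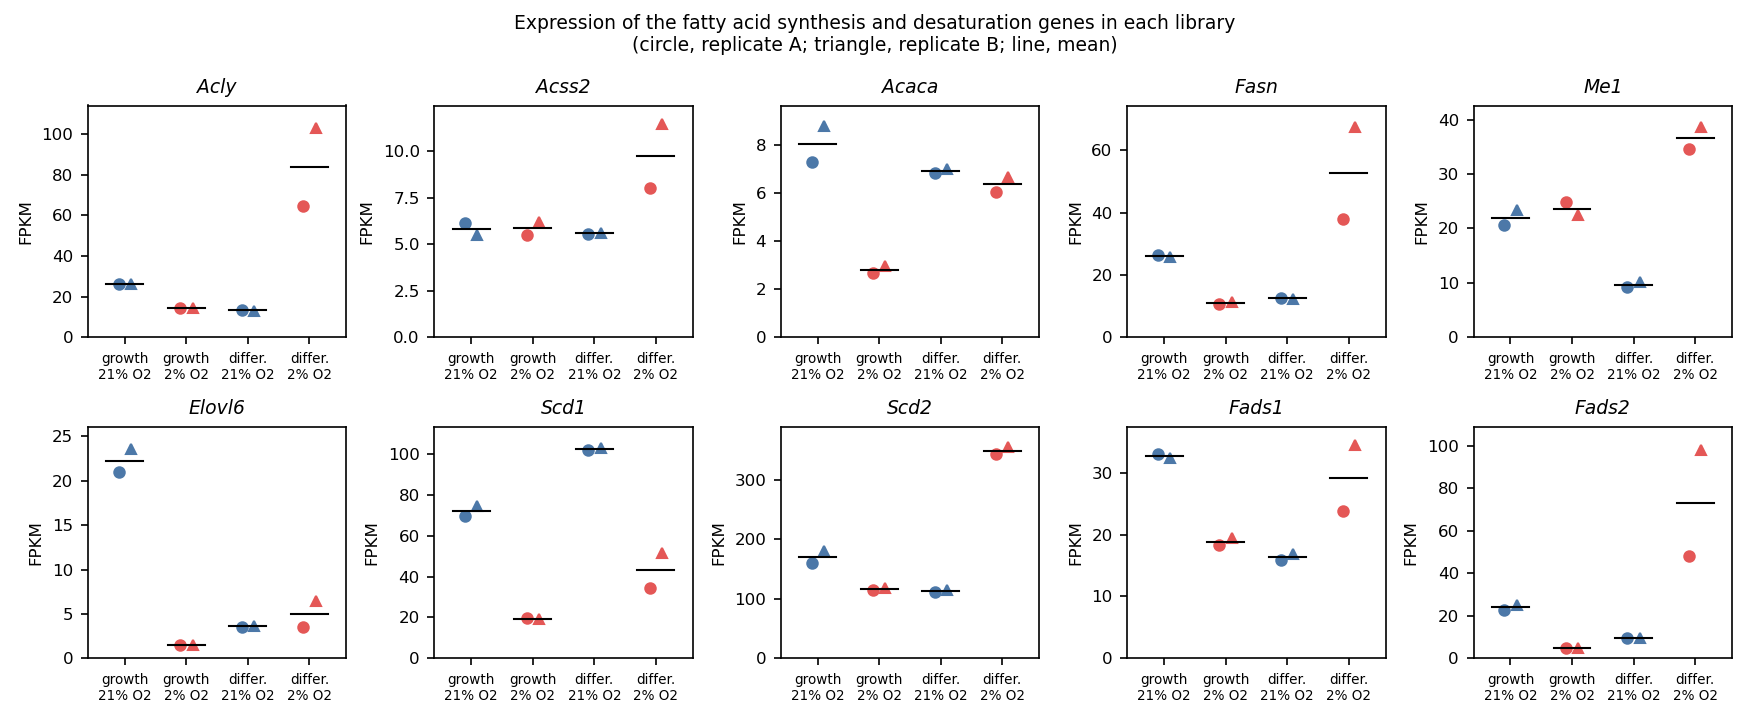
FPKM (vertical axes, from 0) of the 10 genes in each of the 8 libraries, with 1 panel per gene, circles for replicate A, triangles for replicate B, lines for the mean of the 2, blue for 21% and red for 2% oxygen. In 6 panels the mean is highest in hypoxic differentiation medium, where the replicates also lie farthest apart in most panels (Fads2 at 48.3 and 98.3 FPKM), whereas Scd1 peaks in normoxic differentiation medium and Elovl6 in normoxic growth medium.

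The enzyme that makes cytosolic acetyl-CoA from citrate was among the genes that rose most. Acly stood at 26.2 and 26.4 FPKM in normoxic growth medium, 14.5 and 14.4 in hypoxic growth, 13.3 and 13.1 in normoxic differentiation, and 64.8 and 103.1 in hypoxic differentiation medium. Both hypoxic differentiation libraries lay above all others, and no pair of groups overlapped. Groups of 2 libraries did not overlap for 70.3% to 87% of all tested genes, depending on the comparison. Differentiation medium lowered Acly 1.99-fold at 21% oxygen (log2 change -0.94 ± 0.19, SE, adjusted p 0.00481) and raised it 5.80-fold at 2% oxygen (2.42 ± 0.19, adjusted p 0.000453). Hypoxia lowered it in growth medium (-0.82, adjusted p 0.0152) and raised it 6.34-fold in differentiation medium (2.54, adjusted p 4.75e-05), with an interaction of 3.36 ± 0.27 (adjusted p 0.00014). The fall with hypoxia in growth medium lost its call when any 1 of the 4 growth medium libraries was left out, with the change at -0.83 to -0.81. As for every gene, the test uses 1 spread fitted over all 8 libraries. The gap between the hypoxic differentiation replicates therefore enters the SE of the growth medium comparison too.

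The enzyme that uses acetate stood apart in hypoxic differentiation medium alone. Acss2 was at 6.16 and 5.48 FPKM in normoxic growth medium, 5.52 and 6.22 in hypoxic growth, 5.57 and 5.62 in normoxic differentiation, and 8.03 and 11.4 in hypoxic differentiation medium. The first 3 groups overlapped, and both libraries of the last were higher. Its change with differentiation medium at 21% oxygen was -0.05 ± 0.16 (adjusted p 0.817; 0.19 and 0.07 under the median-of-ratios and upper-quartile scalings) and with hypoxia in growth medium 0.01 (adjusted p 0.971). It rose 1.66-fold with differentiation medium at 2% oxygen (0.63, adjusted p 0.023) and 1.74-fold with hypoxia in differentiation medium (0.68, adjusted p 0.00924). The interaction of 0.67 ± 0.23 passed narrowly (adjusted p 0.0453). It did not pass under median-of-ratios scaling (0.39, adjusted p 0.123) or upper-quartile scaling (0.48, adjusted p 0.0687), without the filter on low values (adjusted p 0.0702) or without any 1 of the 6 libraries outside hypoxic differentiation medium (adjusted p 0.0724 to 0.14). The rise at 2% oxygen also missed the threshold without either hypoxic growth medium library (adjusted p 0.126 without A and 0.0762 without B) and without either normoxic differentiation library (0.0569 and 0.0568), and the rise with hypoxia in differentiation medium missed it without either normoxic differentiation library (0.0563 and 0.0539).

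The ratio of Acly to Acss2, both per transcript length, was 4.25 and 4.82 in normoxic growth medium, 2.63 and 2.32 in hypoxic growth, 2.39 and 2.34 in normoxic differentiation, and 8.07 and 9.01 in hypoxic differentiation medium. The citrate carrier Slc25a1, which exports the citrate that Acly uses from mitochondria, stood at 40.7 and 33.8 FPKM, 28.9 and 34.1, 11.4 and 9.63, and 54.7 and 66.7 in the same order of groups. It fell by 1.73 on the log2 scale with differentiation medium at 21% oxygen (adjusted p 8.82e-05) and rose by 0.92 at 2% oxygen (adjusted p 0.0042), with an interaction of 2.65 ± 0.21 (adjusted p 0.00013).

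The carboxylase that commits acetyl-CoA to fatty acid synthesis responded to oxygen in growth medium and not detectably in differentiation medium. Acaca was at 7.30 and 8.80 FPKM in normoxic growth medium, 2.68 and 2.96 in hypoxic growth, 6.82 and 6.99 in normoxic differentiation, and 6.03 and 6.69 in hypoxic differentiation medium. Hypoxic growth medium alone was low, and the other groups lay between 6.03 and 8.80 without overlapping. Hypoxia lowered Acaca 2.85-fold in growth medium (-1.24, adjusted p 0.000455), and its change in differentiation medium was -0.10 (adjusted p 0.465). Differentiation medium raised it 2.26-fold at 2% oxygen (0.95, adjusted p 0.00169), which left it below its level in normoxic growth medium, and the change at 21% oxygen was -0.19 ± 0.12 (adjusted p 0.198), of opposite sign under median-of-ratios scaling (0.05). The interaction was 1.14 ± 0.17 (adjusted p 0.00167). Its paralog Acacb, the carboxylase at the mitochondrial surface that restrains fatty acid oxidation, was at 1.58 and 1.50 FPKM in normoxic differentiation medium and at 0.286 to 0.699 in the other 6 libraries.

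Fatty acid synthase showed a larger swing. Fasn was at 26.4 and 25.8 FPKM in normoxic growth medium, 10.6 and 11.5 in hypoxic growth, 12.6 and 12.3 in normoxic differentiation, and 37.8 and 67.3 in hypoxic differentiation medium. Either change alone, differentiation medium or hypoxia, lowered it more than 2-fold, and with both it stood above every other library. Differentiation medium lowered Fasn 2.09-fold at 21% oxygen (-1.01 ± 0.24, adjusted p 0.00857) and raised it 4.77-fold at 2% oxygen (2.10 ± 0.24, adjusted p 0.0012). Hypoxia lowered it 2.37-fold in growth medium (-1.17, adjusted p 0.00837) and raised it 4.21-fold in differentiation medium (1.93, adjusted p 0.000425), with an interaction of 3.10 ± 0.33 (adjusted p 0.000434). The fall at 21% oxygen lost its call without normoxic differentiation replicate B (-0.99). The fall with hypoxia in growth medium lost its call without replicate A of normoxic (-1.15) or of hypoxic growth medium (-1.12). Without hypoxic differentiation replicate B the interaction was 2.70, and without replicate A it was 3.51.

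Malic enzyme, which supplies NADPH while turning malate into pyruvate, fell with differentiation medium at 21% oxygen and was highest in hypoxic differentiation medium. Me1 was at 20.6 and 23.3 FPKM in normoxic growth medium, 24.9 and 22.4 in hypoxic growth, 9.24 and 10.1 in normoxic differentiation, and 34.6 and 38.7 in hypoxic differentiation medium. The growth medium groups overlapped, with a hypoxia change of 0.10 (adjusted p 0.484), and the differentiation groups lay on either side of them. Differentiation medium lowered Me1 2.27-fold at 21% oxygen (-1.10 ± 0.11, adjusted p 0.000142) and raised it 1.55-fold at 2% oxygen (0.61, adjusted p 0.0054). The interaction was 1.71 ± 0.15 (adjusted p 0.00019), and hypoxia raised Me1 3.78-fold in differentiation medium (1.82, adjusted p 1.49e-05).

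A list of 7 further genes held NADPH-producing enzymes and enzymes of the pentose phosphate pathway, not all of which make NADPH. Of the 7, 0 rose and 4 fell with differentiation medium at 21% oxygen (median -1.64; 41.0% of all tested genes fell), 5 rose and 0 fell at 2% oxygen (median 0.64; 23.3% of all rose), 4 fell with hypoxia in growth medium (28.0% of all) and 4 rose with hypoxia in differentiation medium (37.5% of all). Cytosolic isocitrate dehydrogenase Idh1 went from 96.7 and 101.5 FPKM in normoxic growth to 31.0 and 31.2 in hypoxic growth medium and 10.4 and 10.4 in normoxic differentiation medium, and stood at 97.4 and 79.7 in hypoxic differentiation medium (interaction 4.61 ± 0.14, adjusted p 2.91e-06). Glucose-6-phosphate dehydrogenase, G6pdx, the entry enzyme of the pentose phosphate pathway, was at 49.0 and 48.3, 14.5 and 17.6, 12.6 and 11.0, and 25.8 and 22.6 FPKM in the same order (interaction 2.52 ± 0.17, adjusted p 6.88e-05). Unlike Me1 it remained below its normoxic growth medium level in every other library. Transaldolase, Taldo1, was low in hypoxic growth medium alone, at 29.4 and 31.3 FPKM against 72.3 to 92.0 in the other libraries.

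The elongase had the lowest level of the 10 genes in hypoxic growth medium and the steepest fall with either change. Elovl6 was at 21.0 and 23.5 FPKM in normoxic growth medium, 1.46 and 1.52 in hypoxic growth, 3.55 and 3.69 in normoxic differentiation, and 3.51 and 6.51 in hypoxic differentiation medium. The normoxic growth medium libraries stood above all others, and the differentiation groups overlapped. Hypoxia lowered Elovl6 14.9-fold in growth medium (-3.22, adjusted p 0.000154), and differentiation medium lowered it 6.16-fold at 21% oxygen (-2.33 ± 0.22, adjusted p 0.000138). It rose 3.36-fold with differentiation medium at 2% oxygen (1.23, adjusted p 0.00647), and the interaction was 3.56 ± 0.32 (adjusted p 0.0002). The change with hypoxia in differentiation medium was 0.33 (adjusted p 0.227) and depended on the replicate, at 0.70 (adjusted p 0.00153) without hypoxic differentiation replicate A and -0.03 (adjusted p 0.805) without replicate B. Its relative Elovl5, which elongates polyunsaturated fatty acids, ranged less, from 18.8 FPKM in normoxic differentiation medium to 37.5 in hypoxic differentiation medium (interaction 1.25 ± 0.13, adjusted p 0.000392).

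The stearoyl-CoA desaturases, neighbours in function, were ordered differently across the groups. Scd1 was at 69.8 and 74.3 FPKM in normoxic growth medium, 19.5 and 19.2 in hypoxic growth, 102.0 and 102.8 in normoxic differentiation, and 34.5 and 51.4 in hypoxic differentiation medium. Both hypoxic groups lay below both normoxic groups, which among the 10 genes held for Scd1 and, by a narrow gap in differentiation medium, for Acaca. Hypoxia lowered Scd1 3.72-fold in growth medium (-1.84, adjusted p 0.00038) and 2.38-fold in differentiation medium (-1.26, adjusted p 0.000643), and differentiation medium raised it 1.42-fold at 21% oxygen (0.50 ± 0.17, adjusted p 0.0349) and 2.22-fold at 2% oxygen (1.08, adjusted p 0.00351). The rise at 21% oxygen missed the threshold without the filter on low values (adjusted p 0.0563) and without any 1 of the 6 libraries outside hypoxic differentiation medium (0.46 to 0.55, adjusted p 0.0613 to 0.137). The interaction of 0.58 ± 0.24 did not pass (adjusted p 0.0781). It passed with array quality weights (adjusted p 0.0248) and without either hypoxic differentiation library (0.86, adjusted p 0.000528, without A and 0.30, adjusted p 0.0332, without B).

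Scd2, the isoform with the highest level of the 10 genes in every library, was at 160.4 and 180.5 FPKM in normoxic growth medium, 115.4 and 119.0 in hypoxic growth, 112.1 and 115.2 in normoxic differentiation, and 343.3 and 355.9 in hypoxic differentiation medium. Its replicates lay close together in hypoxic differentiation medium, where those of most of the other genes spread widely. Differentiation medium lowered it 1.50-fold at 21% oxygen (-0.58 ± 0.08, adjusted p 0.000778) and raised it 2.98-fold at 2% oxygen (1.57, adjusted p 0.00014). Hypoxia lowered it in growth medium (-0.53, adjusted p 0.00267) and raised it 3.08-fold in differentiation medium (1.61, adjusted p 7.55e-06). The interaction of 2.15 ± 0.11 had the smallest adjusted p of the 10 genes (2.55e-05). Scd1 and Scd2 are similar in sequence, and how reads shared by both were assigned is not given in the sources used here, so the split between them carries that uncertainty.

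The polyunsaturated fatty acid desaturases, encoded side by side in the genome, shared the direction of every change but not its size. Fads1 was at 33.0 and 32.4 FPKM in normoxic growth medium, 18.3 and 19.4 in hypoxic growth, 15.8 and 16.9 in normoxic differentiation, and 23.9 and 34.4 in hypoxic differentiation medium. Its hypoxic differentiation libraries lay on either side of the normoxic growth medium libraries and above the other groups. It fell 2.00-fold with differentiation medium at 21% oxygen (-0.96 ± 0.16, adjusted p 0.00177) and rose 1.55-fold at 2% oxygen (0.58, adjusted p 0.0276). The rise at 2% oxygen missed the threshold without any 1 of the 6 libraries outside hypoxic differentiation medium (0.54 to 0.62, adjusted p 0.0503 to 0.13). Hypoxia lowered it in growth medium (-0.76, adjusted p 0.00942), a call lost without replicate A of either growth medium group (-0.75, adjusted p 0.0538, and -0.72, adjusted p 0.0632), and raised it in differentiation medium (0.77, adjusted p 0.00479). The interaction was 1.54 ± 0.23 (adjusted p 0.0016).

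Fads2, which catalyses the entry step of polyunsaturated fatty acid synthesis, had the largest interaction of the 10 genes. It was at 22.9 and 25.2 FPKM in normoxic growth medium, 4.87 and 4.80 in hypoxic growth, 9.40 and 9.34 in normoxic differentiation, and 48.3 and 98.3 in hypoxic differentiation medium. No groups overlapped, and hypoxic growth and hypoxic differentiation medium were the lowest and the highest. Differentiation medium lowered Fads2 2.56-fold at 21% oxygen (-1.27 ± 0.29, adjusted p 0.00748) and raised it 15.2-fold at 2% oxygen (3.58 ± 0.29, adjusted p 0.000462). Hypoxia lowered it 4.97-fold in growth medium (-2.10, adjusted p 0.00187) and raised it 7.82-fold in differentiation medium (2.75, adjusted p 0.000206). The interaction was 4.85 ± 0.41 (adjusted p 0.000159), 4.35 without hypoxic differentiation replicate B and 5.36 without replicate A. Another member of the family, Fads3, whose product desaturates sphingoid bases, rose with differentiation medium at both oxygen levels, by 2.54 on the log2 scale at 21% (adjusted p 2.45e-06) and by 0.73 at 2% (adjusted p 0.00182). It went from 26.3 and 22.6 FPKM in normoxic growth medium to 145.6 and 146.9 in normoxic differentiation medium, with 58.5 and 61.4 in hypoxic growth and 95.5 and 105.1 in hypoxic differentiation medium (interaction -1.80 ± 0.13, adjusted p 9.3e-05).

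Ratios of FPKM within a library show these differences between related genes without reference to the scale of the library, and are given as a description with no test. Scd2 exceeded Scd1 2.30- and 2.43-fold in normoxic growth medium, 5.90- and 6.21-fold in hypoxic growth, 1.10- and 1.12-fold in normoxic differentiation, and 9.95- and 6.92-fold in hypoxic differentiation medium. Both hypoxic groups thus had the higher share of Scd2, in either medium. The ratio of Fads2 to Fads1 was 0.693 and 0.777, 0.266 and 0.247, 0.594 and 0.552, and 2.02 and 2.86 in the same order, so Fads2 exceeded Fads1 in hypoxic differentiation medium alone. The ratio of Elovl6 to Fasn was 0.795 and 0.913 in normoxic growth medium and 0.0929 to 0.299 in the other libraries. Fasn exceeded Acaca 3.62- and 2.93-fold, 3.95- and 3.87-fold, 1.85- and 1.76-fold, and 6.26- and 10.1-fold in that order.

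**Figure D2:**
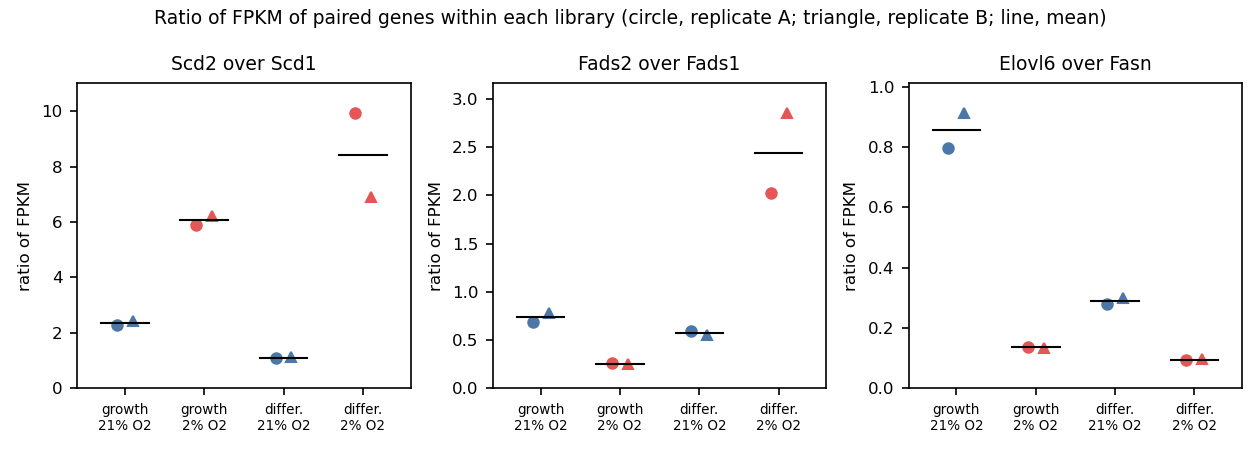
Ratio of the FPKM of 2 genes within each library (vertical axes, from 0), with circles for replicate A, triangles for replicate B, lines for the mean, blue for 21% and red for 2% oxygen. Scd2 over Scd1 is 5.90 or more in the hypoxic libraries and 2.43 or less in the normoxic ones, Fads2 over Fads1 exceeds 1 in hypoxic differentiation medium alone, and Elovl6 over Fasn is highest in normoxic growth medium.

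Ranking the groups by mean gave hypoxic differentiation medium as the highest for 6 genes (Acly, Acss2, Fasn, Me1, Scd2 and Fads2), normoxic growth medium for 3 (Acaca, Elovl6 and Fads1) and normoxic differentiation medium for 1 (Scd1). The lowest group was hypoxic growth medium for 5 genes (Acaca, Fasn, Elovl6, Scd1 and Fads2) and normoxic differentiation medium for the other 5. Neighbours in this order overlapped between libraries for Acss2 (hypoxic growth, normoxic growth and normoxic differentiation medium), Elovl6 (the differentiation groups), Fads1 (normoxic growth and hypoxic differentiation medium) and Me1 (the growth medium groups). Several further neighbours were close without overlapping, such as Scd2 at means of 117 ± 2.55 FPKM in hypoxic growth and 114 ± 2.19 in normoxic differentiation medium (SD, n = 2), and Fasn at 12.5 ± 0.224 in normoxic differentiation and 11.0 ± 0.633 in hypoxic growth medium.

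**Figure D3:**
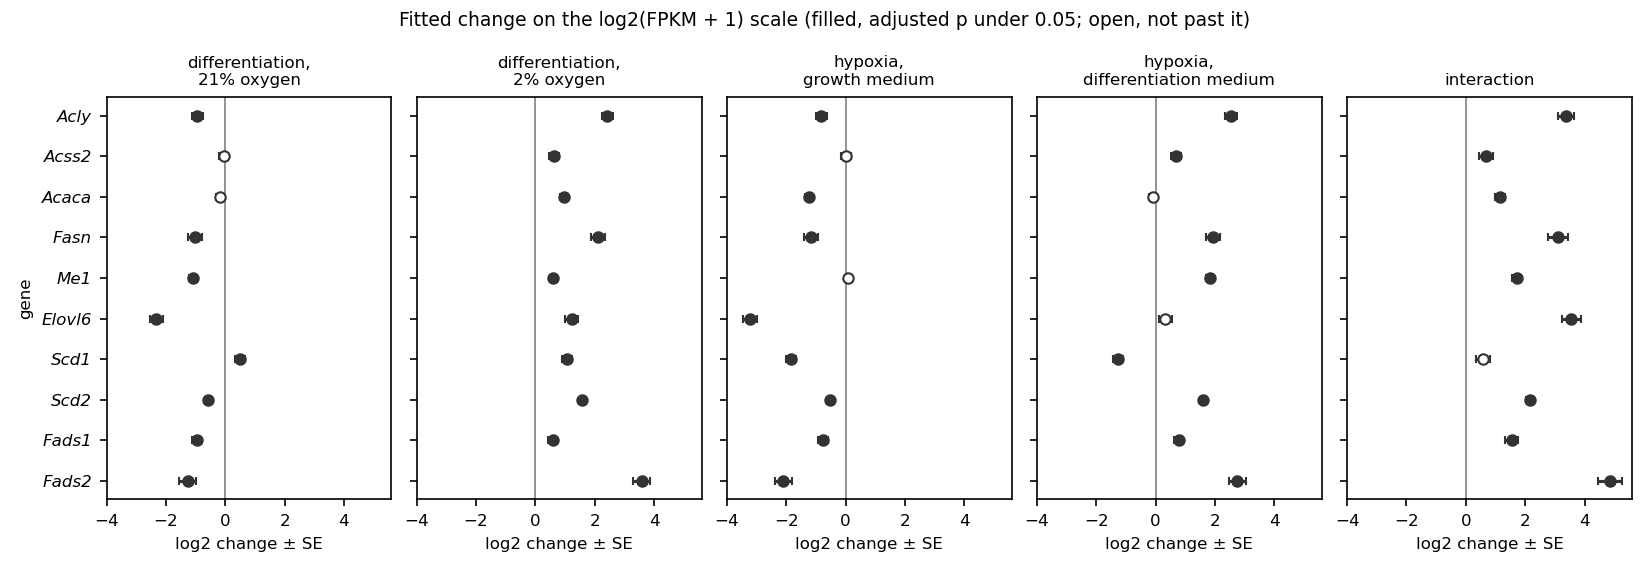
Fitted log2 change (horizontal axes, on the log2(FPKM + 1) scale) with its standard error for the 10 genes in the 5 comparisons, filled where the adjusted p is under 0.05 and open where it is not. All 10 points lie right of 0 for differentiation medium at 2% oxygen, 9 lie left of 0 for differentiation medium at 21% oxygen, and the interaction runs from 0.58 (Scd1) to 4.85 (Fads2).

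The size of the rises in hypoxic differentiation medium rests on replicates that differed. Replicate B was higher than replicate A for 10 of the 10 genes there, with a median log2 difference of 0.54, and for 63.2% of all tested genes, with a median of 0.09. In the other groups replicate B was higher for 7, 6 and 7 of the 10 genes (normoxic growth, hypoxic growth and normoxic differentiation medium). The shares over all tested genes there were 44.3%, 50.7% and 47.8%. The ratio of B to A in hypoxic differentiation medium was 2.04 for Fads2, 1.85 for Elovl6, 1.78 for Fasn, 1.59 for Acly, 1.49 for Scd1, 1.44 for Fads1, 1.43 for Acss2, 1.12 for Me1, 1.11 for Acaca and 1.04 for Scd2. The shallower of the pair, replicate B, was thus the higher, and it was also the one with high cell cycle genes; the part of either in these values was not tested. All 10 genes remained higher with differentiation medium at 2% oxygen when either library was left out. Fitted on the 4 hypoxic libraries alone, 7 of the 10 passed, and Acss2 (adjusted p 0.104), Elovl6 (0.0561) and Fads1 (0.114) did not.

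Among the regulators, Srebf1, Srebf2 and Insig1 fell and rose in the same comparisons as most of the enzymes. Of 25 tested genes of sterol, oxysterol receptor and carbohydrate-response control, 8 rose and 2 fell with differentiation medium at 2% oxygen, against 23.3% and 17.6% of all tested genes, and 4 rose and 12 fell at 21% oxygen, against 25.5% and 41.0%. With hypoxia 1 rose and 8 fell in growth medium (13.5% and 28.0% of all) and 10 rose and 6 fell in differentiation medium (37.5% and 27.7% of all). Under median-of-ratios scaling the split was 6 and 8 for differentiation medium at 21% oxygen and 9 and 10 for hypoxia in differentiation medium. Srebf1, which encodes the factor known best for fatty acid genes, was at 52.6 and 44.8 FPKM in normoxic growth medium, 21.9 and 24.4 in hypoxic growth, 12.1 and 13.1 in normoxic differentiation, and 38.8 and 44.6 in hypoxic differentiation medium. Unlike Fasn, it did not exceed its normoxic growth medium level in hypoxic differentiation medium. It fell by 1.86 on the log2 scale with differentiation medium at 21% oxygen (adjusted p 2.12e-05) and rose by 0.82 at 2% oxygen (adjusted p 0.00249), with an interaction of 2.68 ± 0.16 (adjusted p 4.5e-05). The table does not separate its isoforms.

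Srebf2, which encodes the factor known best for cholesterol genes, was at 102.5 and 91.9 FPKM in normoxic growth medium, 22.9 and 24.7 in hypoxic growth, 48.4 and 46.8 in normoxic differentiation, and 130.0 and 153.6 in hypoxic differentiation medium. Its interaction was 3.54 ± 0.15 (adjusted p 9.18e-06), and its order of groups was that of Fads2 and Fasn. Insig1, a retention protein that is itself a target of these factors, was at 32.2 and 34.9, 4.73 and 5.07, 6.40 and 7.35, and 54.4 and 76.3 FPKM (interaction 5.61 ± 0.23, adjusted p 8.28e-06). Insig2, the second retention protein, followed oxygen and not the medium, with 34.2 and 36.6 FPKM in normoxic growth medium, 77.7 and 76.0 in hypoxic growth, 32.1 and 27.6 in normoxic differentiation, and 85.5 and 68.4 in hypoxic differentiation medium. It rose with hypoxia in growth medium (1.10, adjusted p 0.000855) and in differentiation medium (1.33, adjusted p 0.000122), and its changes with the medium were -0.24 (adjusted p 0.131; 0.03 under median-of-ratios scaling) at 21% and -0.01 (adjusted p 0.978) at 2% oxygen.

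Further regulators were low or had other patterns. Nr1h3, the oxysterol receptor that induces Srebf1 and Scd1 in liver, was at 0.64 to 1.50 FPKM in all libraries. Mlxipl, the carbohydrate-response factor, was at 0.0417 FPKM or less and was not tested. Prkaa2, a catalytic subunit of the kinase that inhibits acetyl-CoA carboxylase, was highest in normoxic differentiation medium, at 2.29 and 2.67 FPKM (interaction -1.09 ± 0.17, adjusted p 0.00186). Akt2, a kinase of the insulin pathway, was at 119.4 and 117.5 FPKM in normoxic differentiation medium and at 31.8 to 58.3 in the other libraries (interaction -1.10 ± 0.10, adjusted p 0.00025). Rxra, the partner of the oxysterol receptors, was highest in normoxic growth medium, at 30.4 and 26.4 FPKM, and between 8.21 and 14.1 elsewhere.

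**Figure D4:**
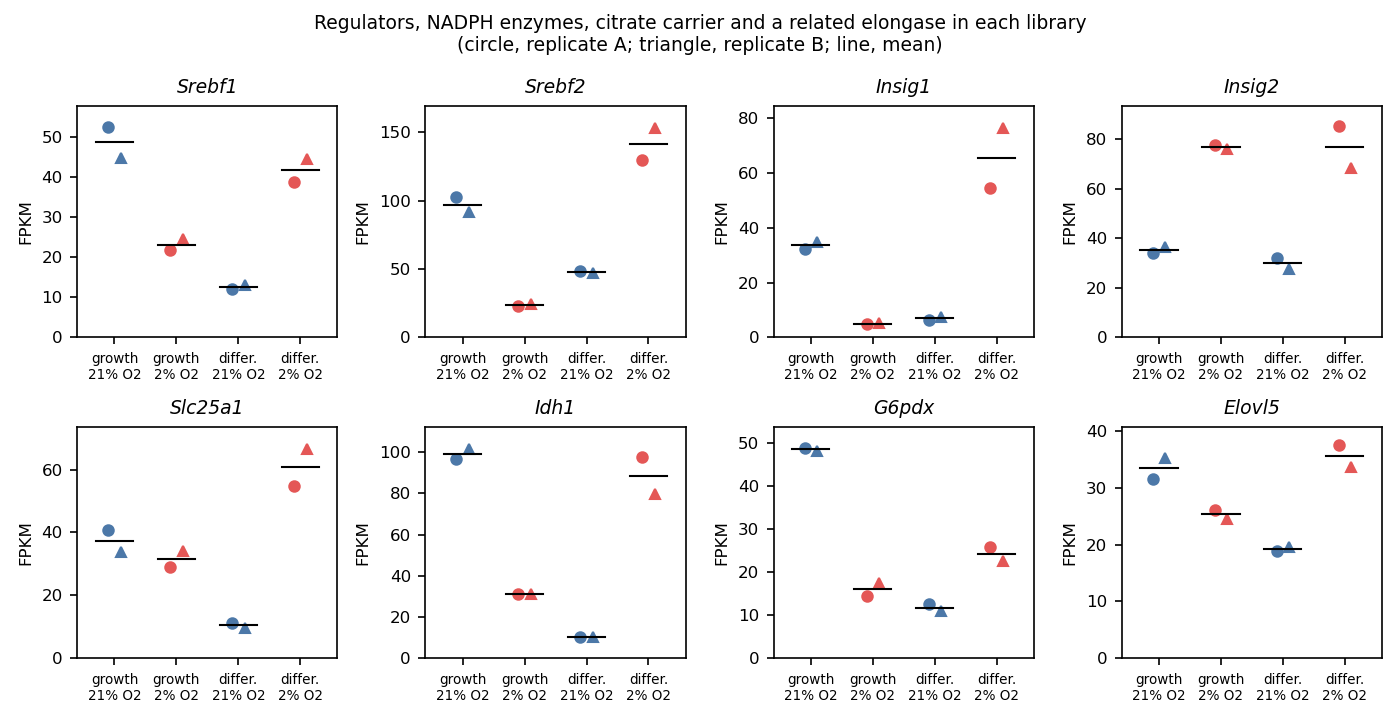
FPKM (vertical axes, from 0) of 7 genes that control the pathway or supply it and of the elongase Elovl5, in each library, with circles for replicate A, triangles for replicate B, lines for the mean, blue for 21% and red for 2% oxygen. Srebf2, Insig1 and Slc25a1 peak in hypoxic differentiation medium, Srebf1, Idh1 and G6pdx have their highest mean in normoxic growth medium, and both hypoxic groups are high for Insig2.

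Cholesterol synthesis and uptake, the other known output of these regulators, rose at 2% oxygen with differentiation medium and fell with hypoxia in growth medium. Of 22 tested genes, 10 fell and 1 rose with differentiation medium at 21% oxygen (median -0.20, as over all genes) where 41.0% of all tested genes fell and 25.5% rose. That split was 2 higher and 7 lower, with a median of 0.04, under median-of-ratios scaling. At 2% oxygen 22 rose (median 3.21; 23.3% of all genes). With hypoxia, 18 fell in growth medium (28.0% of all) and 20 rose in differentiation medium (37.5% of all), where 1 fell.

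The remaining genes of fatty acid synthesis, elongation, activation and their accessories did not move as a block. Of these, 31 were in the deposited table and 27 were tested. Among the 27, 10 rose and 7 fell with differentiation medium at 21% oxygen (median 0.02; 25.5% and 41.0% of all tested genes), and 14 rose and 5 fell, with a median of 0.29, under median-of-ratios scaling. At 2% oxygen 15 rose and 3 fell (median 0.37; 23.3% and 17.6% of all). With hypoxia 3 rose and 14 fell in growth medium (median -0.38; 13.5% and 28.0% of all), and 8 rose and 10 fell in differentiation medium (median -0.01; 37.5% and 27.7% of all). Acyl-CoA synthetase Acsl6, which activates fatty acids, was at 8.04 and 7.00 FPKM in normoxic differentiation medium and at 0.26 or less in all other libraries (interaction -2.78 ± 0.15, adjusted p 2.61e-05). Acsl1, the related synthetase of muscle and fat, was at 16.0 and 16.3 FPKM there, 6.49 and 6.13 in normoxic growth medium, 3.48 and 3.47 in hypoxic growth medium, and 1.60 and 1.20 in hypoxic differentiation medium. Mid1ip1, which stimulates acetyl-CoA carboxylase, was also highest in normoxic differentiation medium, at 75.2 and 68.7 FPKM against 8.26 to 18.9 elsewhere. These genes were high with the muscle markers in normoxic differentiation medium, where 7 of the 10 lipogenic genes fell.

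Elongation partners were split. The dehydratase Ptplad2 fell with differentiation medium at 21% oxygen, from 9.68 and 13.2 to 1.17 and 1.15 FPKM (-2.51, adjusted p 1.67e-05), and was at 7.61 and 8.35 in hypoxic differentiation medium. The reductase Hsd17b12 rose with differentiation medium at 2% oxygen, from 19.2 and 20.0 to 41.0 and 57.3 FPKM (1.27, adjusted p 0.00126), and was at 31.8 to 37.2 FPKM in the normoxic libraries.

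**Figure D5:**
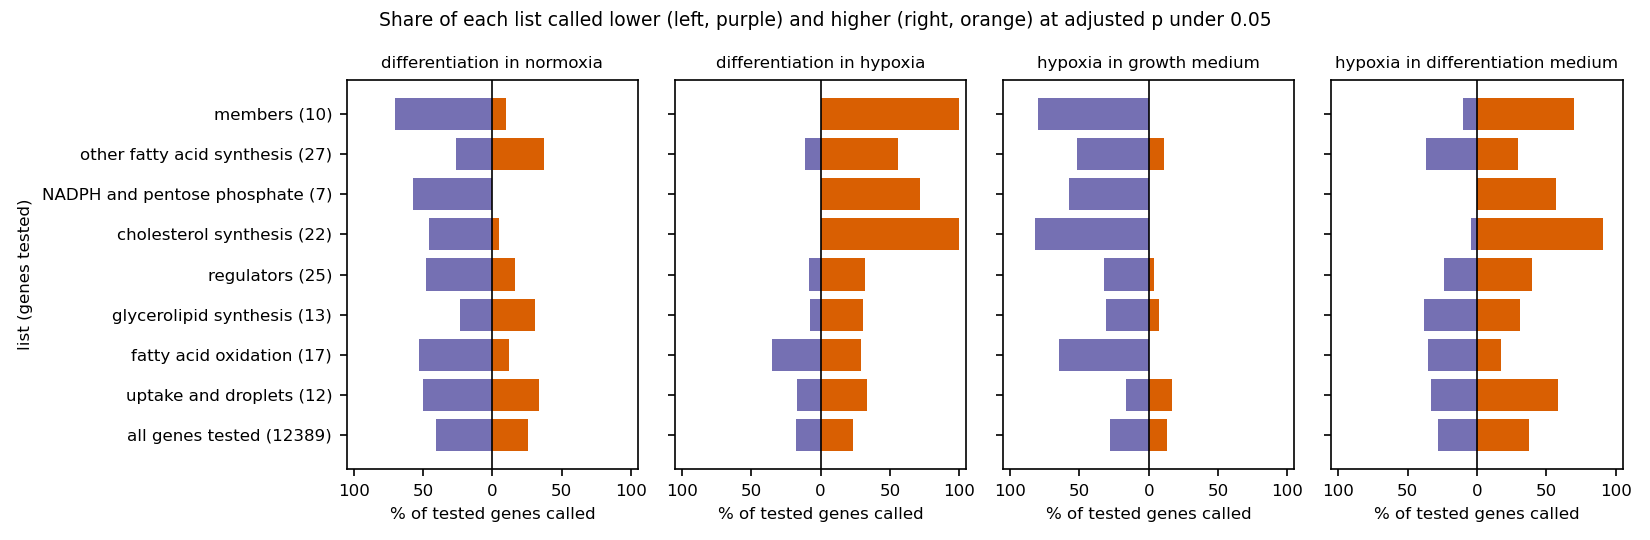
Share of tested genes called lower (left of 0, purple) and higher (right of 0, orange) at an adjusted p under 0.05, in %, for the 10 genes (top bar, "members"), 7 other lists and all 12389 tested genes, in 4 comparisons, with the number tested in brackets. The 10 genes and the cholesterol list reach 100% higher for differentiation medium at 2% oxygen, where the share over all genes is 23.3%.

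Genes that use or store fatty acids were counted in the same way. Of 13 tested genes of glycerolipid synthesis, 4 rose and 3 fell with differentiation medium at 21% oxygen (6 and 2 under median-of-ratios scaling) and 4 rose and 1 fell at 2% oxygen, against the shares over all genes of 25.5% and 41.0%, and 23.3% and 17.6%. Lpin1, a phosphatidate phosphatase, was at 15.9 and 27.9 FPKM in hypoxic differentiation medium and at 2.27 to 5.12 in the other libraries. Of 17 tested genes of fatty acid oxidation, 2 rose and 9 fell with differentiation medium at 21% oxygen (25.5% and 41.0% of all genes). Under median-of-ratios scaling these counts became 5 and 5. At 2% oxygen 5 rose and 6 fell (23.3% and 17.6% of all genes), which became 2 and 6. With hypoxia in growth medium 0 of the 17 rose and 11 fell (9 under median-of-ratios and 7 under upper-quartile scaling), where 28.0% of all genes fell. With hypoxia in differentiation medium 3 rose and 6 fell (3 and 10 under median-of-ratios scaling), against 37.5% and 27.7% of all genes. Acadl, a dehydrogenase of that pathway, was at 116.3 and 117.3 FPKM in normoxic differentiation medium and at 28.2 to 43.5 elsewhere. Among 12 tested genes of uptake and lipid droplets, hypoxia raised 7 and lowered 4 in differentiation medium, against 37.5% and 27.7% of all genes. Under median-of-ratios scaling these were 7 and 5. In growth medium hypoxia raised 2 and lowered 2 (13.5% and 28.0% of all genes). With differentiation medium 4 rose and 6 fell at 21% oxygen (6 and 4 under median-of-ratios scaling), against 25.5% and 41.0% of all genes. At 2% oxygen 4 rose and 2 fell (23.3% and 17.6% of all genes). The droplet coat protein gene Plin2 stood at 178.7 and 261.8 FPKM in hypoxic differentiation medium, 40.6 and 39.2 in normoxic differentiation medium and 96.6 to 119.8 in growth medium, and the muscle fatty acid carrier Fabp3 at 88.4 and 94.6 FPKM in normoxic differentiation medium and at 1.65 or less elsewhere.

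Markers of other cell types had low values in hypoxic differentiation medium, where 6 of the 10 genes were highest, with 1 exception. Of 8 adipocyte markers, 6 were under 0.5 FPKM in all libraries, Plin1, Lep and Cidec were listed at 0 in all 8, and the summed level was 3.80 and 5.96 FPKM in hypoxic differentiation medium against 7.35 to 24.3 in the other libraries. All 4 endothelial markers were under 0.5 FPKM in every library, with sums of at most 0.520. Of 5 leukocyte markers, Emr1 and Cd3e were listed at 0 in all libraries. An exact 0 in this table can be a gap in quantification, since 1 of the 23 cholesterol synthesis and uptake genes in it, which every cell uses, is also listed at 0 throughout. Cd68, a lysosomal protein of macrophages named here after its values were seen, was at 25.8 and 42.8 FPKM in hypoxic differentiation medium and at 1.76 to 3.57 elsewhere. Through Cd68 the summed level of that list was highest in hypoxic differentiation medium. The part of Cd68 in the result was not tested.

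The genes most like 3 of the 10 in pattern were ranked by Pearson's r of log2(FPKM + 1) over the 8 libraries, among 7864 tested genes with a group mean of at least 10 FPKM, as a description. The libraries form 4 groups, so r reflects mainly the group means. Fasn was followed most closely by Acat2 (0.996), Stard4 (0.988), Pcyt2 (0.987), Fads2 (0.987) and Mcm3ap (0.986). Acat2 went from 14.3 FPKM in normoxic growth to 4.22 in hypoxic growth, 4.42 in normoxic differentiation and 53.5 in hypoxic differentiation medium (means). Fads2 was most like Fasn (0.987), Exosc10 (0.985), Wdr8 (0.983) and Stard4 (0.982) among the genes reported. The list for Scd1 was made of other genes: Cs (0.998), Slc25a5 (0.997), Cstf2t (0.995), Lpcat3 (0.993) and Dlst (0.991). Citrate synthase, Cs, had means of 93.7, 40.9, 119.0 and 65.2 FPKM in normoxic growth, hypoxic growth, normoxic differentiation and hypoxic differentiation medium, the order of groups that Scd1 had.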

How the data were processed

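Columns of the deposited gene table were assigned to RNA-seq samples by title. The deposited values are named as counts, but they are not whole numbers and were treated as FPKM made by the authors. The submitters' processing notes name STAR 2.5.1b, Cufflinks 2.2.1 and the build mm9. The treatment of multi-mapping reads and of strand is not given in the sources used here. Values were tested as log2(FPKM + 1) with limma 3.58.1 (R 4.3.3, intensity trend) on genes whose mean reached 1 FPKM in some group. All 8 libraries entered one model of 4 group means (4 residual degrees of freedom). Tests are two-sided, and p-values were adjusted by Benjamini-Hochberg over the 12389 genes of each of 5 comparisons. The log scale with a pseudocount understates changes of genes near 1 FPKM. Absolute depth is unknown, because FPKM hold no counts.

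Genes named were the 10 genes, 9 regulators and relatives (Srebf1, Srebf2, Insig1, Mlxipl, Nr1h3, Acacb, Slc25a1, Elovl5 and G6pdx), the gene of each list with the largest rise and fall past the threshold (in all comparisons for the synthesis, NADPH and regulator lists, and for the other lists in the interaction, a limit set after values were seen), and the 5 genes most like Fasn, Scd1 and Fads2. Some genes that this rule picked are not reported here. The genes and lists were chosen with earlier results of these data known. The fit was tested on simulated data. Alternatives were another pseudocount (0.1), no filter, other scalings, array quality weights, a replicate block, only the libraries compared, and leaving out each library. Promoter windows came from RefSeq (GRCm38.p6) and the expression values carry no coordinates.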

Additional observations from a re-analysis of the deposited data

Results flagged for a closer look

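For 9 of the 10 genes the response to differentiation medium differed between 2% and 21% oxygen by the interaction term of the limma fit, in log2 units as 2% minus 21%. Its values were 4.85 (Fads2), 3.56 (Elovl6), 3.36 (Acly), 3.10 (Fasn), 2.15 (Scd2), 1.71 (Me1), 1.54 (Fads1), 1.14 (Acaca) and 0.67 (Acss2). Among the other genes named, the term was positive for Insig1 (5.61), Idh1 (4.61), Srebf2 (3.54), Srebf1 (2.68), Slc25a1 (2.65), G6pdx (2.52), Cpt1c (2.48), Lpin1 (2.44), Ptplad2 (2.29), Plin2 (2.18), Taldo1 (1.38), Elovl5 (1.25), Rxra (1.18) and Hsd17b12 (1.05). It was negative for Fabp3 (-4.89), Acsl6 (-2.78), Agpat9 (-2.52), Acsl1 (-2.13), Fads3 (-1.80), Acadl (-1.18), Akt2 (-1.10), Prkaa2 (-1.09), Mid1ip1 (-1.08) and Acacb (-0.84). Over all tested genes the median of this term was 0.27, and 35.4% were positive and 18.7% negative past the threshold. The call of Acss2 was narrow and was lost under median-of-ratios (0.39) and upper-quartile scaling (0.48). Several of these genes were picked for having the largest term of their list, so their sizes are a description.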

How the results depend on the processing

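Each count and each named change was recomputed under 15 alternatives (14 for the interaction). For the 10 genes, 688 recomputed changes kept direction and side of the threshold, 41 lost the call, 4 gained one and 7 changed sign. Leaving out 1 library at a time gave 8 to 10 of the 10 genes called for differentiation medium at 2% oxygen, 6 to 8 at 21% oxygen, 5 to 8 for hypoxia in growth medium (main value 8), 7 to 9 for hypoxia in differentiation medium and 8 to 10 for the interaction. Counts over all genes ranged from 2503 to 6479 for differentiation medium at 2% oxygen and from 2989 to 6831 for hypoxia in growth medium, and the first was 2867 with only the libraries compared (main value 5073). The cause was not tested. A fit on the replicate letters as a replicate block called 8, 10, 8, 8 and 8 of the 10 genes (differentiation medium at 21% and 2% oxygen, hypoxia in growth and differentiation medium, interaction), the last losing Acss2. Deviations of replicate A correlated between groups at -0.17 to 0.04, so the letters were not taken to pair libraries.

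None of the values that changed sign had passed or came to pass the threshold. With median-of-ratios scaling Acaca (0.05), Acss2 (0.19) and Insig2 (0.03) turned for differentiation medium at 21% oxygen, Taldo1 (-0.13) for hypoxia in differentiation medium and Insig2 (-0.08) for the interaction, and with upper-quartile scaling Acss2 (0.07) at 21% oxygen. Leaving out 1 library at a time gave ranges across 0 for Acss2 (-0.12 to 0.03) and Nr1h3 (-0.14 to 0.23) at 21% oxygen, for Acsl6 (-0.06 to 0.09), Insig2 (-0.17 to 0.15), Akt2 (-0.08 to 0.01) and Cpt1c (-0.29 to 0.71) at 2% oxygen, for Acss2 (-0.06 to 0.08) and Cpt1c (-0.12 to 0.18) with hypoxia in growth medium, and for Nr1h3 (-0.34 to 0.04) in the interaction. Elovl6 with hypoxia in differentiation medium ranged from -0.03 to 0.70, and it and Cpt1c at 2% oxygen passed at the upper end, without hypoxic differentiation replicate A. With 2 libraries a group and no counts, small changes are limited by the spread of hypoxic differentiation medium.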
